A study of Mus musculus with 7 samples.

Results

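Transcript levels of 38 genes of the DNA replication machinery were compared between cultured cardiac cells and heart tissue of the mouse. The genes were taken by name from the array's design, which held 34792 gene names, and were measured by 50 of its 55670 probes. They cover 10 genes of origin licensing, 5 of helicase activation, 5 polymerase and primase subunits, 7 genes of the sliding clamp, its loader and strand joining, 4 of nucleotide supply, 4 regulators of entry into S phase and 3 of chromatin replication. Membership used gene names only and no measured value, although the list was drawn up with earlier results of these data known.

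DNA is copied once per cell cycle. In G1 the origin recognition complex, Cdc6 and Cdt1 load the ring-shaped Mcm2 to Mcm7 helicase onto DNA, and in S phase Cdc45 and the GINS complex switch it on, so that primase and the polymerases can follow. Most of these genes are transcribed under E2F factors as cells leave G1, and in heart tissue their transcripts are high while cardiomyocytes divide before birth and low in the adult, where few cells cycle.

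The cells were cardiac mesenchymal progenitors (CMPs), adherent stromal cells grown from the hearts of adult C57BL/6 mice on collagen I in DMEM/F12 with 10% serum, to which 40 ng/ml of the growth factor bFGF was added. There was 1 array for each of 4 sources: atrial and ventricular tissue stored for 24 h at 4 °C after death (postmortem CMPs, 2 arrays), and atrial and ventricular tissue of living animals (living CMPs, 2 arrays). Heart RNA served as the positive control, with 1 array of commercial adult heart RNA whose strain and age the labels do not give, and 2 arrays of C57BL/6 fetal hearts of embryonic day 16.5. Of the fetal hearts, 1 was wild type and 1 carried the transgene of C57BL/6-Tg(Myh6-EGFP)MG2, in which the cardiomyocyte promoter of Myh6 drives green fluorescent protein. CMPs and hearts therefore differ in culture as well as in source. Within a group the arrays differ by chamber or by genotype. Since the labels name no repeated cultures or separate animals, p-values reflect only how far these samples scatter, and that scatter may be technical.

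The share of probes well above background ran from 46.5% to 52.5% over the arrays, whose small number limits the precision. All 4 CMP arrays lay in the first row of 1 slide and the 3 heart arrays in the second, so slide row and the difference between CMPs and hearts cannot be told apart. The postmortem atrial array stood apart, with 4686 to 5295 of 24878 genes at least 2-fold from another CMP array, where pairs of the other 3 had 2402 to 2718 such genes. Of the 38 replication genes, 1 to 4 were at least 2-fold apart in its pairs and 1 to 8 in the others. All 10 stromal markers were well above background on every CMP array. Cardiomyocyte markers were well above background for 1 to 4 of 10 on the CMP arrays and for all 10 in the hearts, with Myh6 and Actc1 not well above background on any CMP array. Their summed log2 level was 0.58 to 4.12 in CMPs and 11.79 to 13.06 in hearts. Erythroid markers were well above background for at most 1 of 7 in CMPs, 3 in adult heart, and 7 and 5 in the wild-type and transgenic fetal hearts. Their summed log2 level was -2.91 to -2.36 in CMPs and 10.33 to 11.61 in hearts. In whole tissue, fewer cells of a type and less RNA per cell cannot be told apart.

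Signals are given as log2 of the processed spot signal minus the array's 75th percentile, so that 0 is the 75th percentile of the probes of that array. The level of one probe cannot be set against that of another, so levels are compared only between arrays. Of the 38 genes, 35 were well above background on all 7 arrays. Cdc6 was not well above background in adult heart, Orc1 was so on 3 arrays, and Ccne2 only in the wild-type fetal heart. The median over the 38 genes was -0.07 in adult heart, 1.68 and 1.81 in living atrial and ventricular CMPs, 2.21 and 2.32 in postmortem atrial and ventricular CMPs, and 3.96 and 3.67 in the wild-type and transgenic fetal hearts. By group means, 27 genes were ordered from adult heart through living and postmortem CMPs to fetal heart. On every single array this order held for 24 of the 38, against 2.13% of the 24878 genes well above background somewhere, an order chosen after the values were seen. Another 5 genes, Cdc45, Gins1, Rfc4, Rpa2 and E2f2, ran from living CMPs through postmortem CMPs and adult heart to fetal heart.

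**Figure D1:**
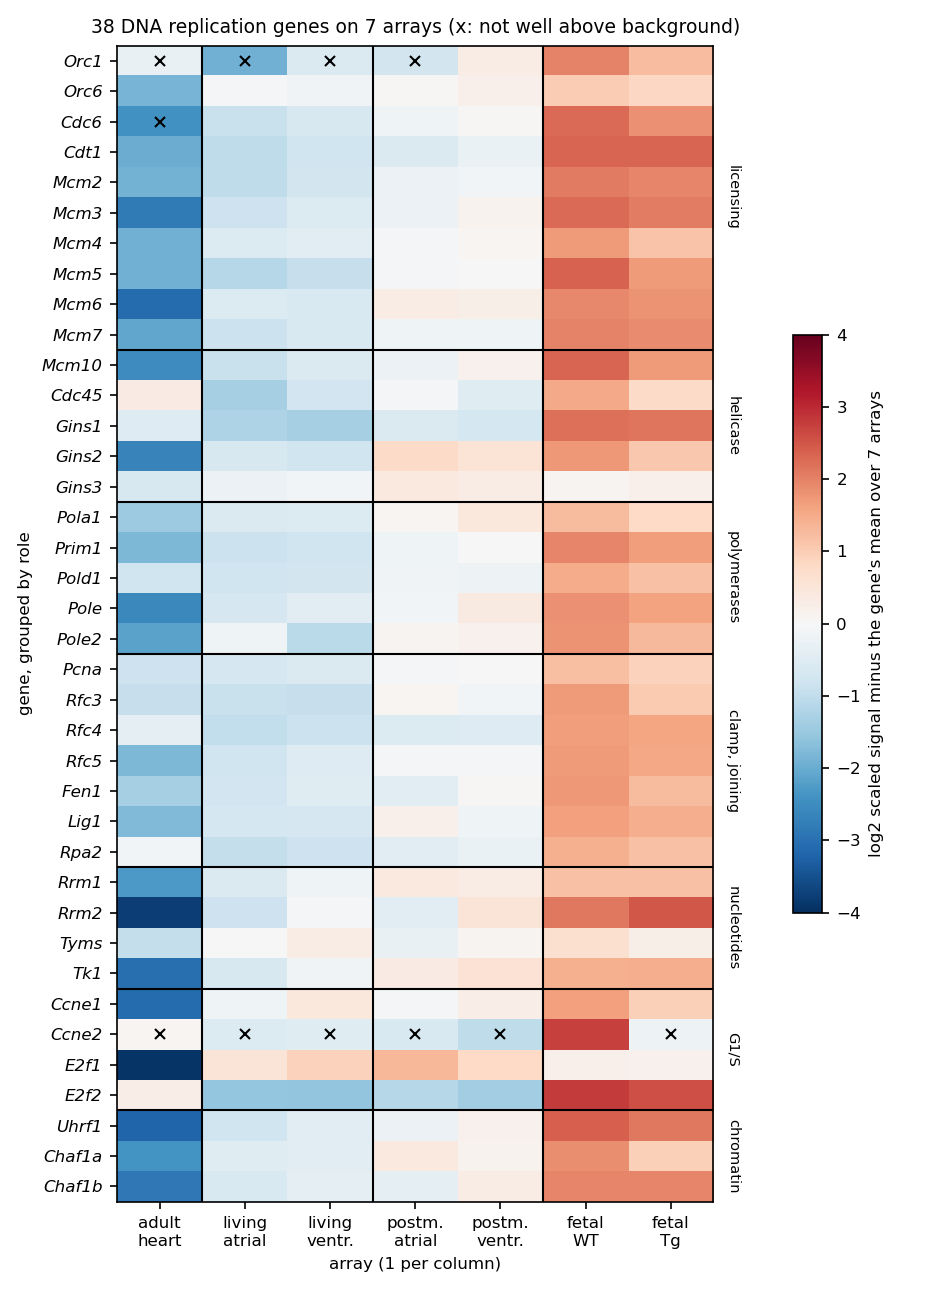
Log2 scaled signal of 38 replication genes (rows, grouped by role) on 7 arrays (columns), each gene shown relative to its own mean over the arrays, red above and blue below; crosses mark arrays where the probe was not well above background. Most rows run from blue in adult heart through pale CMP columns to red in both fetal hearts; E2f1 is red in the CMPs, and E2f2 is blue there.

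The promoters were searched because most of the genes moved together. RefSeq promoter windows (build GRCm38.p6, 250 bases before to 50 after the annotated start) were at hand for 33 of the 38 genes. A letter match to TTTCCCGC, TTTCGCGC, TTTGCCGC or TTTGGCGC on either strand, here called E2F-like, was found in 15 of the 33, or 45.5%, against 2.6% of 27025 gene symbols with a window of that length. CCAAT was found in 60.6% against 41.06%, and TTTGAA or TTCGAA in 21.2% against 21.66%. The member windows also held more G and C, with a median of 57.7% against 52.7%. Such a match is a description of the letters and not a binding site. The 19 E2F-like sites lay in 15 genes, of which the licensing genes Orc1, Cdc6, Cdt1, Mcm3, Mcm5, Mcm6 and Mcm7 held 10 of them. At 2 sites, in Mcm5 and Mcm6, TTTCGCGC and TTTGGCGC overlapped on opposite strands to give 12 bases. Stretches of 30 bases, 5′ to 3′ on the gene's strand with the E2F-like match in capitals, show the 2 overlapping sites and 4 single ones.
Mcm5, chr8:75109347-75109376, plus strand: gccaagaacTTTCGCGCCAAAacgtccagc
Mcm6, chr1:128359795-128359824, minus strand: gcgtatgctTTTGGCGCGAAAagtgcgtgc
Cdc6, chr11:98908002-98908031, plus strand: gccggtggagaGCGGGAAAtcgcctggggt
Mcm7, chr5:138172030-138172059, minus strand: aatttcgaaccGCGGGAAAcagggtgtcca
Gins3, chr8:95633507-95633536, plus strand: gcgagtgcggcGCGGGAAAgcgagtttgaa
E2f2, chr4:136172294-136172323, plus strand: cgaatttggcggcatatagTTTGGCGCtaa
Between the 15 genes with a match and the 18 without, the median log2 difference from adult to fetal heart was 3.71 and 3.54, and that from living to postmortem CMPs 0.69 and 0.56. By group means, genes outside the order from adult heart through living and postmortem CMPs to fetal heart were on both sides. Of those with a window, Orc1, Gins3 and E2f2 held a match. Cdc45, Rfc4, Rpa2, Tyms, Ccne1 and E2f1 did not, and for E2f1 this holds only for the window searched.

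**Figure D2:**
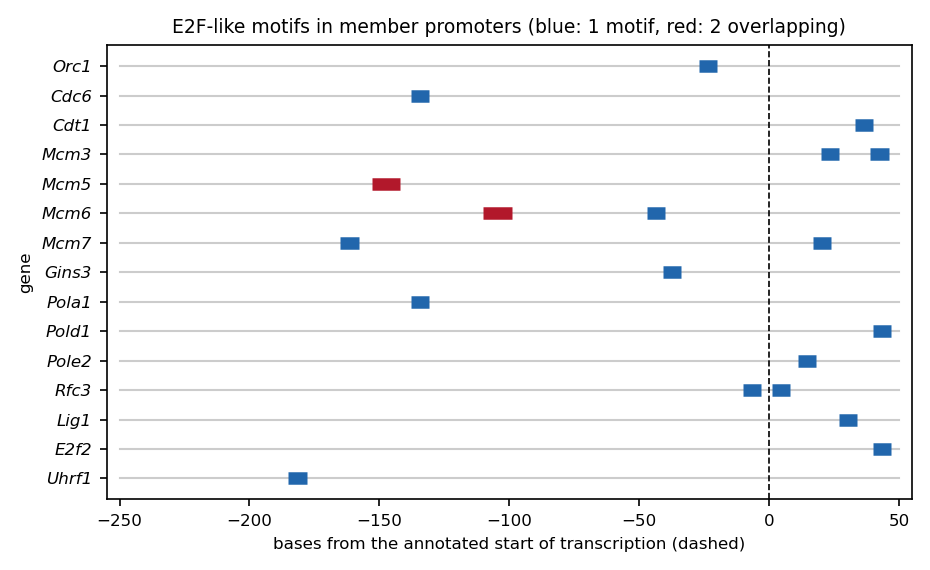
Positions of E2F-like letter matches in the promoter windows of 15 replication genes, in bases from the annotated start of transcription (dashed line); blue marks single motifs and red the 12-base overlaps of 2 motifs. Of 19 sites, 10 lie before the start and 9 after it.

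Fetal heart had far more replication transcript than adult heart. Of 37 genes tested, 36 were higher in fetal heart and none lower (limma, Benjamini-Hochberg adjusted p under 0.05 over 20936 genes, of which 18.3% were called higher and 18.8% lower). The median difference over the 38 genes was 3.54 on the log2 scale, against -0.09 over all genes tested. Rrm2, the regulated subunit of ribonucleotide reductase, led with 6.06 ± 0.24 (SE; 66.8-fold), followed by Uhrf1 with 5.48 ± 0.23. Cdc45 was the gene that did not pass, at 0.79 ± 0.54 (adjusted p = 0.294, limma). Gins3 lost its call without any one of the CMP arrays (adjusted p = 0.0568 to 0.0588, limma). Tyms lost it without either fetal array and Orc1 without the wild-type fetal array (adjusted p = 0.103, 0.0534 and 0.121 in limma). With normexp background correction both lost it too, at 0.58 for Tyms and 0.26 for Orc1 (adjusted p = 0.160 and 0.531, limma).

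CMPs stood above adult heart and below fetal heart for most of the genes. Adult heart is 1 array, so the spread behind every test against it comes from the CMP and fetal arrays, and the adult array is assumed to vary like them. Against adult heart, 27 of 36 genes tested were higher and 1, E2f2, was lower (limma; 24.6% of 20270 genes were called in each direction), with a median of 1.44 against -0.00 over all genes tested. Against fetal heart, 34 of 37 were lower and none higher (limma; 25.2% of 20044 genes were called lower and 22.8% higher), with a median of -1.93 against -0.01. The adjusted p for E2f1, higher in CMPs than in fetal heart, was just above the threshold. The comparisons with hearts share their arrays and are not independent of each other. With scaling on the probes detected on all arrays, the median of all genes itself shifted to -0.18 against fetal heart and -0.16 against adult heart, and the medians of the 38 genes were -2.10 and 1.28.

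**Figure D3:**
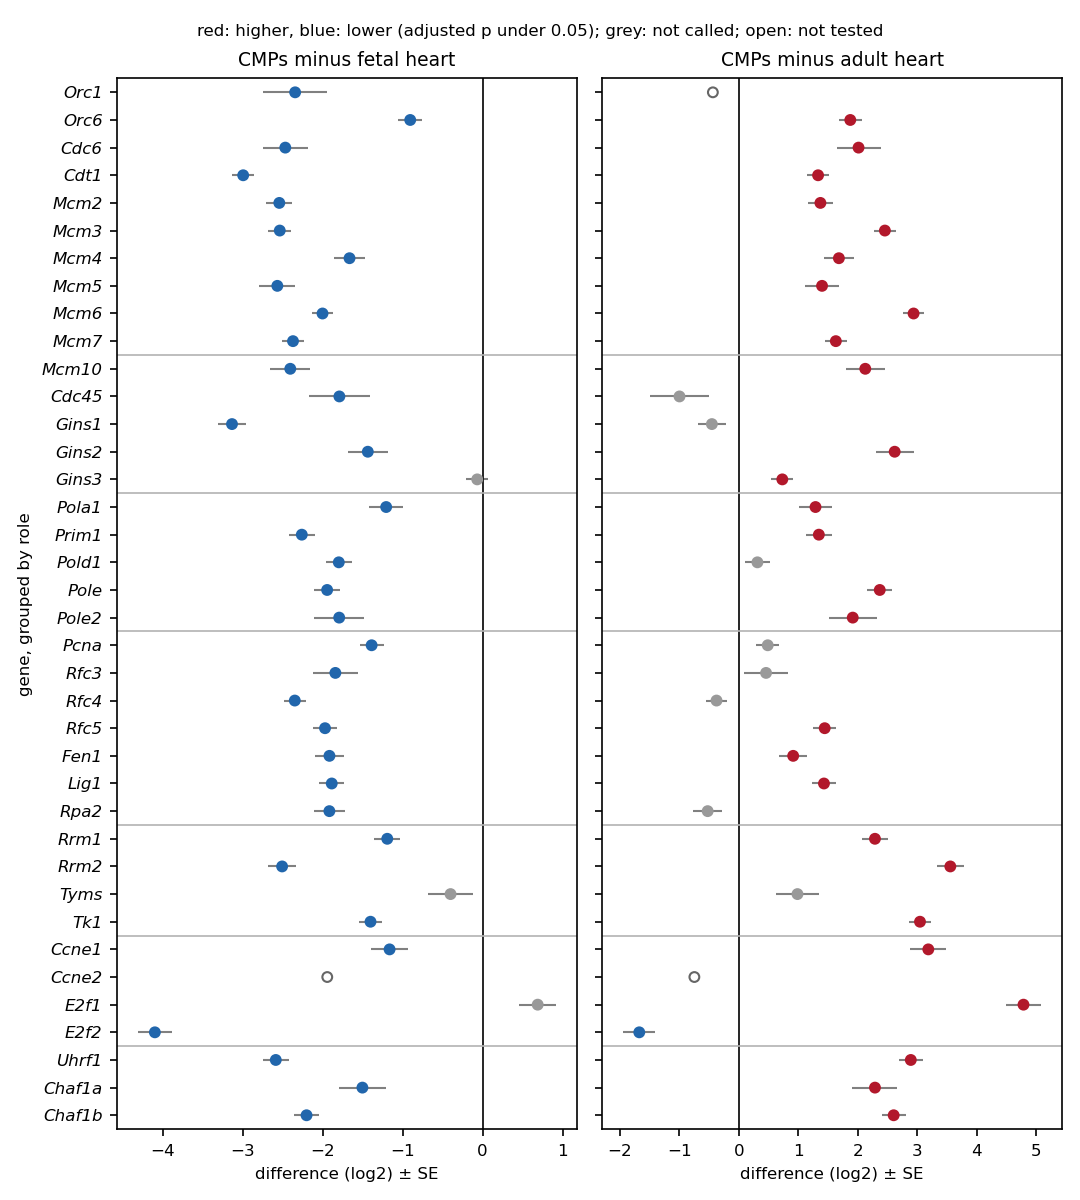
Log2 differences (limma, ± SE) of CMPs (4 arrays) from fetal heart (2 arrays, left) and from adult heart (1 array, right) for each replication gene, grouped by role; red and blue points passed an adjusted p of 0.05, grey ones did not, and open ones were not tested. On the left 34 points are blue; on the right 27 are red and E2f2 is blue.

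Postmortem CMPs tended above living CMPs, but no single gene passed. None of the 36 genes tested was called (limma; 0.105% of 19007 genes were called and 2100 had an unadjusted p under 0.05), while 21 had an unadjusted p under 0.05, all higher in postmortem CMPs, against 5.66% of all genes in that direction. Both postmortem arrays lay above both living arrays for 32 of the 36, against 23.9% of genes tested, and no tested gene lay wholly the other way (20.1% of all). The difference was above 0 for 35 of all 38 genes (50.7% of genes tested), with a median of 0.62 against 0.01 over all genes tested. In the atrial pair 36 of 38 were higher with a median of 0.66, and in the ventricular pair, which leaves out the postmortem atrial array, 34 of 38 with a median of 0.58. A difference of at least 2-fold was reached by 3 tested genes in the atrial pair and 2 in the ventricular pair, against 6.04% and 2.84% of genes tested. Higher in both pairs were 33 of 36, against 33.6%. With 1 of the ventricular CMP arrays left out, whichever it was, Gins2 differed by 1.40 and Mcm5 by 1.12. Either way the difference is that of the atrial pair alone. The fetal pair then supplies the spread, on 1 residual degree of freedom, with the CMP arrays assumed to vary like it. Such a fit leaves 1 array in a source state, so no call is drawn from it. The interaction of source state and chamber called none of the genes (limma; 2.41% of 19007) and none had an unadjusted p under 0.05 in it, against 4.46% of genes with a higher ventricular and 2.56% with a higher atrial difference. Among the marker lists, summed endothelial levels were lower in postmortem CMPs, at 3.27 and 3.43 against 4.10 and 3.69 in living CMPs. Kdr carried that sum and was the 1 of 6 endothelial markers that separated the source states, at 3.15 and 2.71 against 3.37 and 3.44; Pecam1, Cdh5, Tek, Tie1 and Esam were lower postmortem in the atrial pair and higher in the ventricular pair. Summed leukocyte levels were also lower, at 5.99 and 5.60 against 6.11 and 6.17, with 6 or 7 of 8 markers well above background. Itgam carried that sum and alone among these markers separated the source states, at 5.83 and 5.44 against 5.95 and 6.01. Lyz2 was higher postmortem in both pairs, at -1.79 and -0.82 against -1.94 and -1.31. Summed smooth muscle and pericyte levels overlapped, at 6.62 and 7.54 against 6.93 and 7.28. Of these markers only Cspg4 separated the source states, higher at 2.95 and 0.05 against -0.61 and -1.67. Rgs5 was higher postmortem in both pairs, at 3.25 and -2.60 against 1.59 and -5.54. Cnn1, at -0.66 and 0.51 against 0.39 and 0.70, and Myh11, dim on both atrial arrays, were lower in both pairs. Acta2 was lower in the atrial pair and higher in the ventricular pair. Summed stromal levels overlapped, at 11.03 and 10.92 against 10.94 and 11.10, but single stromal markers separated the source states in both directions. Col1a1, Col3a1 and Pdgfra were lower on both postmortem arrays, with Pdgfra at 4.92 and 4.94 against 5.80 and 5.84. Thy1 and Ddr2 were higher, with Ddr2 at 5.41 and 5.44 against 4.48 and 4.83. The other stromal markers overlapped. The part of these shifts in the result was not tested.

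**Figure D4:**
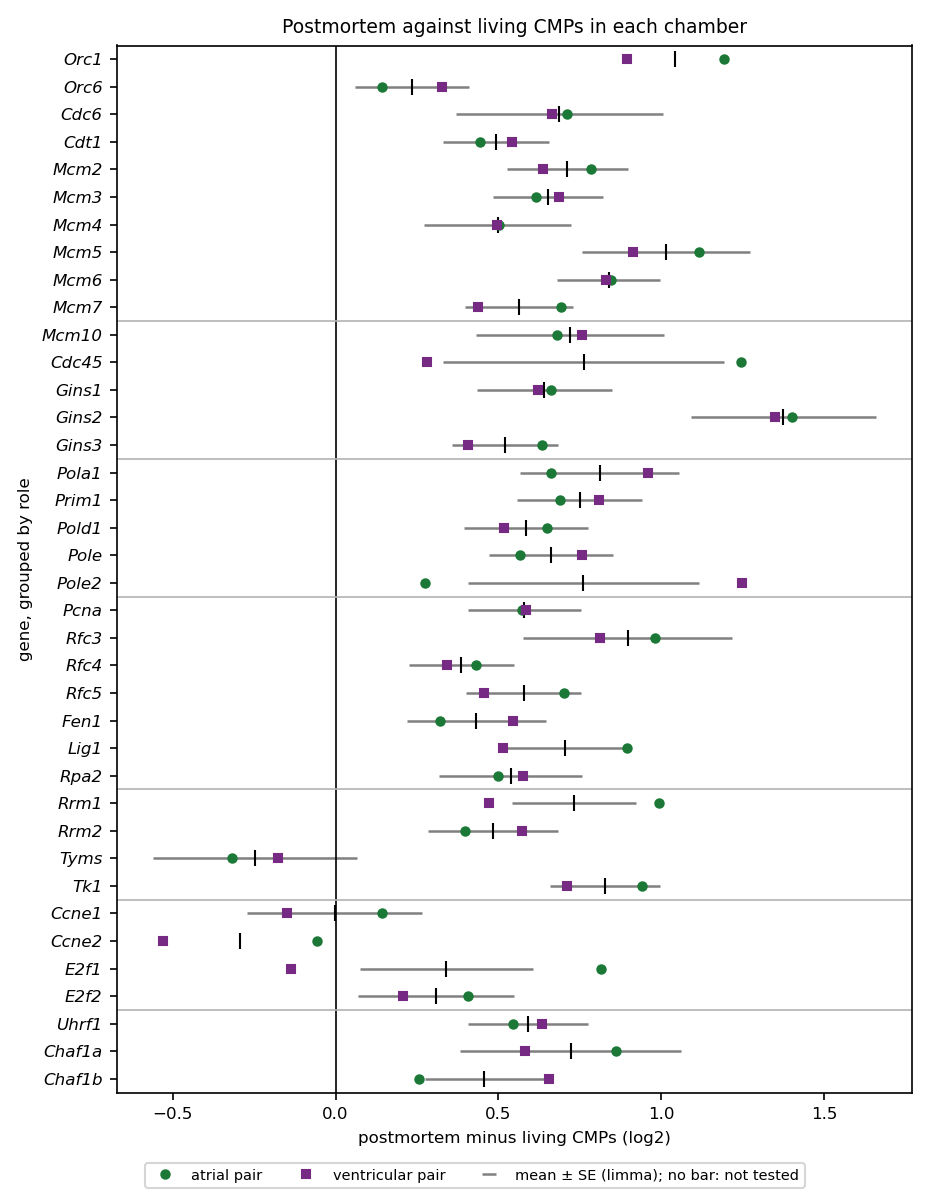
Postmortem minus living CMPs on the log2 scale for each replication gene, as the atrial pair (circles), the ventricular pair (squares) and their mean with its SE from limma (bars). Points lie right of 0 for 36 genes in the atrial pair and 34 in the ventricular pair; Tyms and Ccne2 lie left in both, and Ccne1 and E2f1 on both sides.

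No replication gene passed between the chambers. None of 36 genes was called between ventricular and atrial CMPs (limma; 0% of 18906 genes were called and 1561 had an unadjusted p under 0.05). The median was 0.13 against 0.03 over all genes tested. Rrm2, at 0.87 ± 0.20 (adjusted p = 0.336, limma), was the only one with an unadjusted p under 0.05 (4.91% of genes tested were higher at that level). Both ventricular arrays lay above both atrial arrays for Rrm2, Tyms and Ccne1, against 21.6% of all genes tested.

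Of the 10 licensing genes, 9 followed the order from adult heart through living and postmortem CMPs to fetal heart. Mcm6, a helicase subunit, measured 1.79 in adult heart, 4.34 and 4.28 in living atrial and ventricular CMPs, 5.19 and 5.11 in postmortem ones, and 6.80 and 6.67 in wild-type and transgenic fetal heart. The 4 groups did not overlap at any step. It was 7.67-fold higher in CMPs than in adult heart (log2 2.94 ± 0.18, adjusted p = 3.81e-04) and 4.00-fold lower than in fetal heart (log2 SE 0.14, adjusted p = 3.62e-04, limma). Its promoter follows, chosen as that of the licensing gene with the smallest adjusted p against adult heart. Capitals mark the E2F-like matches, which begin at -110 and -47 from the start, and the 2 CCAAT matches, both read on the opposite strand as ATTGG.
Mcm6 promoter, chr1:128359656-128359955, minus strand: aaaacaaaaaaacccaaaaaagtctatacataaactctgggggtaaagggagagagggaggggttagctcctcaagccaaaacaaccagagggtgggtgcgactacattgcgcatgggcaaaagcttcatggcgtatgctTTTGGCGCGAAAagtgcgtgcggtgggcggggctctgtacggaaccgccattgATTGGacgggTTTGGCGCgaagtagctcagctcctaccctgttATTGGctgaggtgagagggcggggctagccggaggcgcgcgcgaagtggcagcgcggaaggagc
Mcm5 measured 0.23 in adult heart, 1.02 and 1.23 in living CMPs, 2.13 and 2.15 in postmortem CMPs, and 4.52 and 3.88 in fetal heart. It had the largest postmortem difference among the tested licensing genes, 1.01 ± 0.26 (adjusted p = 0.307, limma). All 6 Mcm2 to Mcm7 genes were called in each of the comparisons of CMPs and fetal heart with adult heart and of CMPs with fetal heart, and in none of those among CMPs. In the same directions 24.6%, 18.3% and 25.2% of all genes tested were called. Against fetal heart they ran from -1.66 for Mcm4 to -2.57 for Mcm5, and against adult heart from 1.37 for Mcm2 to 2.94 for Mcm6. Among CMPs both postmortem arrays lay above both living arrays for all 6 (23.9% of all genes tested), by 0.50 for Mcm4 to 1.01 for Mcm5.

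Among the loaders of the helicase, Cdt1, Orc6 and Cdc6 followed that order and Orc1 did not. Cdt1, which brings the Mcm ring to the origin, had the smallest difference from adult heart of the tested licensing genes (1.33 ± 0.18, adjusted p = 0.00300) and the widest from fetal heart (-2.99 ± 0.14, adjusted p = 1.55e-04, limma). It measured 0.64 in adult heart, 1.63 to 2.37 in the CMPs, and 4.96 and 4.98 in fetal heart. Orc6, a subunit of the origin recognition complex, varied least among the CMPs, from 2.67 to 3.00, and was -0.90 ± 0.15 from fetal heart (adjusted p = 0.00552, limma). Cdc6 was dim in adult heart: it was at least 2.06-fold higher in CMPs (adjusted p = 0.00768) and at least 11.4-fold higher in fetal heart (adjusted p = 0.00182, limma). These bounds set the brighter group against the lowest signal well above background on the dim array, and the measured means were 2.01 and 4.48 apart. With normexp background correction the Cdc6 difference between CMPs and adult heart was 0.28 and was not called (adjusted p = 0.441, limma). Orc1, the largest origin recognition subunit, measured -4.39 in adult heart, -6.01 and -4.68 in living CMPs, -4.82 and -3.79 in postmortem CMPs, and -2.11 and -2.86 in fetal heart. It was well above background in the postmortem ventricular CMPs and in both fetal hearts, and was at least 1.90-fold higher in fetal than in adult heart (adjusted p = 0.0478, limma).

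The helicase activation genes differed among themselves. Gins2, a GINS subunit, measured -2.11 in adult heart, -0.10 and -0.26 in living CMPs, 1.30 and 1.09 in postmortem CMPs, and 2.27 and 1.62 in fetal heart. Its postmortem difference, 1.37 ± 0.28 or 2.59-fold, was the largest of the 38 (adjusted p = 0.253, limma), and the pairs gave 1.40 and 1.35. Gins3 belongs to the same complex but varied less, with 4.22 in adult heart, 4.63 to 5.26 in the CMPs, and 4.97 and 5.07 in fetal heart. The CMP arrays spanned the fetal ones (difference -0.07 ± 0.14, adjusted p = 0.731). Its difference from adult heart, 0.73 ± 0.18, passed with all arrays (adjusted p = 0.0214) and missed the threshold without any one CMP array (adjusted p = 0.0529 to 0.107) and without a trend (adjusted p = 0.0599, limma). Gins1 went the other way against adult heart. It measured 0.08 there, -0.74 to 0.03 in the CMPs, and 2.79 and 2.73 in fetal heart, so that CMPs were 8.77-fold below fetal heart (adjusted p = 2.38e-04) and not distinguished from adult heart (-0.45 ± 0.23, adjusted p = 0.158, limma).

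Cdc45, the partner of GINS in the active helicase, was also low in the CMPs. It measured -1.95 in adult heart, -3.60 to -2.36 in the CMPs, and -0.78 and -1.53 in fetal heart. All 4 CMP arrays lay below adult heart, 2.00-fold on average (log2 SE 0.49), which was not called (adjusted p = 0.147, limma). The CMPs were called lower than fetal heart (-1.79 ± 0.38, adjusted p = 0.0128), a call that was lost without the wild-type fetal array (-1.41, adjusted p = 0.0779, limma). Mcm10, which helps Cdc45 onto the helicase, followed the main order, from -2.20 in adult heart through -0.59 to 0.49 in CMPs to 2.65 and 2.01 in fetal heart.

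Among the polymerases, Pole and Pold1, catalytic subunits of the leading and lagging strand enzymes, parted against adult heart. Pole was 5.17-fold higher in CMPs than in adult heart (log2 2.37 ± 0.21, adjusted p = 9.24e-04), whereas Pold1 was not called (0.31 ± 0.21, adjusted p = 0.265, limma). The Pole call rests on the probe used: another gave -1.08, and the mean of its probes gave 0.19, which was not called (adjusted p = 0.720, limma). Pold1 measured 1.75 in adult heart, 1.74 and 1.80 in living CMPs, 2.38 and 2.32 in postmortem CMPs, and 4.01 and 3.70 in fetal heart. Adult heart thus lay within the range of the living CMPs. Pola1 and Prim1, of the primase complex, and Pole2 were all higher in CMPs than in adult heart (1.29, 1.35 and 1.92) and lower than in fetal heart (-1.20, -2.26 and -1.79). In the postmortem comparison this role had the highest median among the 7 roles, 0.75. Both postmortem arrays lay above both living arrays for 5 of 5, against 23.9% of all genes tested.

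The clamp and loader genes had the lowest median of the 7 roles against adult heart, 0.49. Of 7 genes, 3 were called higher in CMPs than in adult heart (Fen1, Lig1 and Rfc5), against 24.6% of all genes tested. Pcna, the sliding clamp, measured 3.71 in adult heart, 3.86 and 3.95 in living CMPs, 4.43 and 4.53 in postmortem CMPs, and 5.72 and 5.44 in fetal heart. All CMP arrays were above adult heart, by 0.49 ± 0.19 (adjusted p = 0.0872, limma), and the difference passed without either fetal array (adjusted p = 0.0478 and 0.0470). Rfc4, a clamp loader subunit, and Rpa2, which coats single-stranded DNA, lay below adult heart on every CMP array. Their differences were -0.37 ± 0.18 (adjusted p = 0.139) and -0.52 ± 0.25 (adjusted p = 0.133, limma). Rfc5, of the same loader, was 2.72-fold higher than in adult heart (adjusted p = 0.00299, limma) by the probe used. Its other probe, well above background on all 7 arrays, gave 0.16 against adult heart and 0.28 against fetal heart, neither called (adjusted p over probes = 0.734 and 0.432, limma). Against fetal heart all 7 genes were called lower by the probes used (25.2% of all genes tested), from -1.39 for Pcna to -2.35 for Rfc4. Fen1, which trims flaps, and Lig1, which seals nicks, were 0.91 and 1.43 above adult heart. The Fen1 call was lost with quantile normalization, with the other percentile and without a trend (adjusted p = 0.0723, 0.0615 and 0.0578, limma).

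Nucleotide supply held the gene with the largest difference between the hearts. Rrm2 measured -0.39 in adult heart, 2.53 and 3.31 in living atrial and ventricular CMPs, 2.93 and 3.89 in postmortem ones, and 5.47 and 5.87 in fetal heart. The ventricular arrays were the higher ones in both source states, and the living and postmortem arrays overlapped. It was 11.8-fold higher in CMPs than in adult heart (adjusted p = 4.18e-04, limma). Rrm1, the large subunit of the same enzyme, was 4.89-fold higher (adjusted p = 9.89e-04) and did separate the source states, by 0.73 ± 0.19 (adjusted p = 0.310, limma). Tk1, the S-phase thymidine kinase, measured -0.29 in adult heart, 2.10 and 2.60 in living CMPs, 3.04 and 3.31 in postmortem CMPs, and 4.13 and 4.19 in fetal heart. It was 8.27-fold higher in CMPs than in adult heart (log2 3.05 ± 0.19, adjusted p = 4.01e-04, limma), the smallest adjusted p of this role, and its promoter, which held neither an E2F-like nor a CCAAT match, is therefore shown.
Tk1 promoter, chr11:117825965-117826264, minus strand: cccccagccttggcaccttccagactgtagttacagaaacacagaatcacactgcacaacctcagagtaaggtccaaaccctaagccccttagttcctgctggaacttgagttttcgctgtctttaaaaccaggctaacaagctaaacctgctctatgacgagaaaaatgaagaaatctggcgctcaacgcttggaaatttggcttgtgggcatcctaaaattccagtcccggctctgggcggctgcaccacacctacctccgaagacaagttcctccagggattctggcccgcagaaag
Tyms, thymidylate synthase, measured -2.70 in adult heart, -1.73 and -1.46 in living CMPs, -2.04 and -1.64 in postmortem CMPs, and -1.11 and -1.52 in fetal heart. It was lower in the postmortem array of both pairs (mean -0.25 ± 0.31) and overlapped fetal heart (-0.40 ± 0.28, adjusted p = 0.290, limma). Above adult heart it was 0.99 ± 0.36 (adjusted p = 0.0689), and it passed there with quantile normalization and without a trend (adjusted p = 0.0241 and 0.0421, limma).

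The regulators of S-phase entry differed in direction. E2f1, an activator of replication genes, measured -1.92 in adult heart, 2.49 and 2.91 in living CMPs, 3.31 and 2.77 in postmortem CMPs, and 2.21 and 2.16 in fetal heart. Every CMP array lay above every heart array. It was 27.6-fold higher in CMPs than in adult heart (log2 4.79 ± 0.30, adjusted p = 4.01e-04), the largest of the 38, and 0.69 ± 0.23 above fetal heart (adjusted p = 0.0541, limma). Without the postmortem ventricular or the living atrial array that difference was 0.93 and was called (adjusted p = 0.00328 and 0.00311). It was also called with normexp background correction and without a chamber term (adjusted p = 0.0379 and 0.0434, limma). Between source states it differed by 0.81 in the atrial pair and by -0.14 in the ventricular pair. The RefSeq window of E2f1, shown as that of the regulator with the smallest adjusted p against adult heart, was 77.3% G and C and had no match to either motif. Only this annotated start of E2f1 was searched. Whether the window lies before the coding sequence or within it was not analysed, so it is not shown to be the promoter of the gene. The lack of a match therefore holds for this window and not for any other start of the gene.
E2f1 promoter, chr2:154569377-154569676, minus strand: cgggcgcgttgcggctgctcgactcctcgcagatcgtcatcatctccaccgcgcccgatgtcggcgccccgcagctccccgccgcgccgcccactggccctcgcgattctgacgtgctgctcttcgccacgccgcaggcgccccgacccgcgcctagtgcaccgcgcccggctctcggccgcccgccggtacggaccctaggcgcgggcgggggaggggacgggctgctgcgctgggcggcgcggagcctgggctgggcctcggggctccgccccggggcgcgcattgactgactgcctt
E2f2, a related activator, was low in the CMPs. It measured 0.14 in adult heart, -1.66 and -1.71 in living CMPs, -1.26 and -1.50 in postmortem CMPs, and 2.66 and 2.47 in fetal heart, with no overlap between any of the groups. CMPs were 17.1-fold below fetal heart (log2 -4.10 ± 0.21, adjusted p = 1.84e-04) and 3.19-fold below adult heart (-1.67 ± 0.27, adjusted p = 0.00511, limma). The erythroid markers were lower in CMPs than in hearts too, with Hbb-b1, an adult beta globin, at -6.32 to -5.85 in CMPs and 9.06 to 9.93 in the hearts; their part in the E2f2 result was not tested. Ccne1, cyclin E1, which with Cdk2 drives entry into S phase, was 9.11-fold higher in CMPs than in adult heart (adjusted p = 0.00102) and 2.24-fold lower than in fetal heart (adjusted p = 0.0104, limma). Its other probe had the same signs, at 1.54 and -1.11, and neither was called (adjusted p over probes = 0.0996 and 0.124, limma). Its source states overlapped, at 2.60 and 3.20 in living and 2.74 and 3.05 in postmortem CMPs. Ccne2, cyclin E2, was dim on 6 arrays and was not tested.

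Of the chromatin genes, Uhrf1 maintains DNA methylation behind the fork, and Chaf1a and Chaf1b are subunits of the chromatin assembly factor that places new histones. Uhrf1 measured -0.67 in adult heart, 1.76 and 2.10 in living CMPs, 2.30 and 2.73 in postmortem CMPs, and 4.94 and 4.67 in fetal heart. It was 7.43-fold above adult heart (adjusted p = 5.50e-04) and 6.00-fold below fetal heart (adjusted p = 2.84e-04, limma). A second Uhrf1 probe was called the opposite way against adult heart (-2.10, adjusted p over probes = 0.00921), and the mean of its probes was not called (0.40, adjusted p = 0.284, limma). Against fetal heart that probe was lower too (-2.33, adjusted p over probes = 0.00243, limma). Chaf1a and Chaf1b were 4.89-fold and 6.08-fold above adult heart and 2.83-fold and 4.59-fold below fetal heart, all called. All 3 genes lay higher on both postmortem than on both living arrays, by 0.46 to 0.72, against 23.9% of all genes tested.

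Between the fetal hearts, the wild-type array was higher for 33 of 38, by a median of 0.26, against -0.16 over the 24878 genes, and 1 gene, Ccne2, differed at least 2-fold. With 1 array of each genotype this difference has no replicate check.

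Probes of one gene could disagree. Of 9 genes with more than 1 probe, 5 had probes that differed by more than 1 on the log2 scale in some comparison (Uhrf1, Rfc5, Pole, Ccne1 and Mcm3). For each gene the probe of highest mean was used above. In fetal against adult heart, the Uhrf1 probes gave 5.48 and 0.24, and against adult heart the CMPs were 2.89 higher by one and -2.10 by the other. The tested Pole probes gave 2.37 and -1.08 for CMPs against adult heart, and the Rfc5 probes 3.41 and -0.12 for fetal against adult heart. The Ccne1 probes agreed in direction, at 4.35 and 2.65 for fetal against adult heart, as did those of Mcm3, at 4.99 and 3.41. The first 30 of the 60 bases of each probe are given for the 4 genes with the largest gaps, the used probe first, with the probe's mm9 span as the deposited files give it. Within each of these 4 genes the probes lie apart, so that they read different stretches of its transcripts. Whether these are coding or untranslated exons was not analysed here. The Mcm3 probes, in contrast, overlap (chr1:20793136-20793195 and chr1:20793119-20793178), and still differed by 1.58 in fetal against adult heart.
Uhrf1 probe A_55_P2035286, chr17:56462770-56462829, plus strand: tgtgtctcatggaaactaaaccatttacta
Uhrf1 probe A_66_P120074, chr17:56451668-56452321, plus strand: agctatacggcaacatcaggctcttgaatg
Rfc5 probe A_51_P246339, chr5:117829243-117829302, minus strand: ataggaaagaaactacaacagtttgccttc
Rfc5 probe A_55_P1971468, chr5:117836290-117836349, minus strand: ggtgacccccaactataaaattatgttcat
Pole probe A_55_P2007273, chr5:110766375-110766434, plus strand: agaagacttctgctaacgtcatcatgccat
Pole probe A_55_P2089035, chr5:110720154-110720213, plus strand: aaagtgccagttactccagaataacaagct
Ccne1 probe A_51_P408946, chr7:38882937-38882960, minus strand: gcatgtcctgccttcatgaactcttatttt
Ccne1 probe A_66_P125327, chr7:38885574-38885633, minus strand: ataaaaacacttttacagcttattgggatt
The probe letters are those of the array's design, all in lower case because no part of them is singled out.

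**Figure D5:**
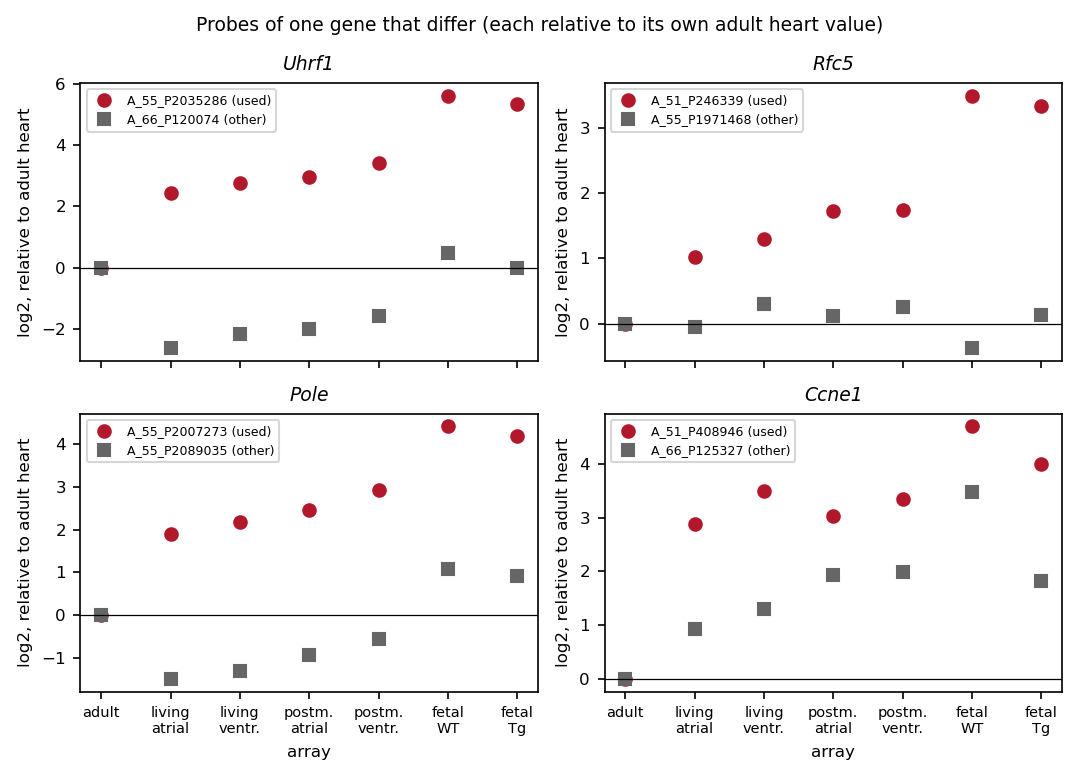
Log2 scaled signal on 7 arrays for 2 probes of each of 4 genes, each probe relative to its own value in adult heart; red circles are the probes used and grey squares the other ones. For Uhrf1 and Pole the CMP arrays lie above adult heart by one probe and below it by the other.

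Other genes of the same pathway, 76 in 6 lists drawn up with earlier results known, had medians of the same sign as the replication genes, larger between the chambers (0.17 against 0.13) and smaller in the 4 comparisons that follow. Their median was 1.63 in fetal against adult heart (48 of 75 tested called higher and 2 lower, against 18.3% and 18.8% of all genes tested). In CMPs against adult heart it was 0.58 (32 of 74 higher and 5 lower, against 24.6% in each direction). In CMPs against fetal heart it was -0.97 (47 of 76 lower and 7 higher, against 25.2% and 22.8%). In postmortem against living CMPs it was 0.26 (0 of 74 called, against 0.105%). Gmnn, geminin, the inhibitor of Cdt1, was lower in CMPs than in adult heart, whereas Cdt1 was higher in CMPs. At -0.45 to 0.31 in CMPs and 2.30 in adult heart, Gmnn differed by -2.49 ± 0.26 (adjusted p = 0.00132, limma). It was 2.03 and 2.26 in the fetal hearts (-2.33 ± 0.20, adjusted p = 6.99e-04). Ccna2, cyclin A2, which acts with Cdk2 in S phase, followed the main order, 3.85 ± 0.22 above adult heart and -2.32 ± 0.17 from fetal heart. Ccnd1, cyclin D1, upstream in G1, was higher in CMPs than in adult heart by 3.54 ± 0.38 (adjusted p = 0.00144, limma). At 7.69 and 7.35 in postmortem, 4.94 and 5.95 in living CMPs, and 4.85 and 4.54 in fetal heart, it separated the source states by 2.07 ± 0.34 (adjusted p = 0.194, limma). E2f7 and E2f8, E2F family repressors, were lower in CMPs than in fetal heart, with differences of -2.42 ± 0.23 and -2.62 ± 0.20. Both lay above adult heart on every CMP array, E2f7 at -0.78 to 0.57 against -1.99 and E2f8 at -1.31 to 0.19 against -2.23.

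Mitosis genes, 30 in all, had wider medians than the replication genes against adult heart. In fetal against adult heart 27 of 29 tested were called higher (18.3% of all genes tested), with a median of 5.82 over the 30. In CMPs against adult heart 26 of 28 were called higher and 1 lower (24.6% in each direction), with a median of 4.04. Against fetal heart 29 of 29 tested were called lower (25.2% of all genes tested), at a median of -1.63. Ccnb1, cyclin B1, was 5.70 ± 0.20 and Prc1, of the central spindle, 5.34 ± 0.20 above adult heart (adjusted p = 2.00e-04 for both, limma). In postmortem against living CMPs all 30 had a difference above 0 (50.7% of all genes tested), and none of 28 was called (0.105%). Their median there was 0.88 (0.97 in the atrial pair, 0.70 in the ventricular pair). Cenpa, the centromere histone, was 1.37 ± 0.24 higher there (adjusted p = 0.207, limma), at 2.38 and 2.11 against 0.59 and 1.16.

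Most CDK inhibitors and p53 pathway genes were higher in CMPs than in either heart. Of 10 genes of this list, 7 were called higher than in adult heart and 2 lower (24.6% of all genes tested in each direction). Against fetal heart 6 were called higher and 2 lower (22.8% and 25.2%). Cdkn2b, an inhibitor of the cyclin D kinases, measured 3.79 to 4.02 in CMPs, -0.98 in adult heart, and -1.95 and -1.98 in fetal heart. Cdkn1a, the p53 target p21, measured 4.45 to 5.05 in CMPs, 1.39 in adult heart, and 0.84 and 1.30 in fetal heart. CMPs and hearts did not overlap for either gene (adjusted p = 6.74e-05 and 1.92e-04 against fetal heart, limma). Cdkn1c, the p57 inhibitor, was opposite, at -0.57 to 0.89 in CMPs, 2.33 in adult heart, and 7.55 and 7.99 in fetal heart (-7.85 ± 0.32 against fetal heart, adjusted p = 1.12e-04, limma). None of the 10 was called between postmortem and living CMPs (0.105% of all genes tested).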

How the data were processed

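Total RNA of 7 samples, 250 ng each, was hybridised to 1-colour Agilent mouse arrays. The authors deposited scanner tables in which the intensity used, the processed signal, is already background-subtracted, per the file headers. The Feature Extraction software was version 10.7.3.1 by those headers and 9.5.3 in the submitters' processing notes. A second deposited table holds log2 values; at least 99.99% of its probes matched the log2 processed signal up to an array constant, and its column medians ran from -4.25 to -3.60.

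Outlier spots were dropped and log2 signals averaged over repeated spots. Of 55681 probes 11, none of a replication gene, were left out because an array had no usable spot. Each array's 75th percentile was subtracted, and the probe with the highest mean stood for its gene. Two-sided tests used limma 3.58.1 in R 4.3.3 (lmFit, eBayes with a trend). The 7 arrays were fitted together, with a mean for each of the postmortem CMP, living CMP, adult and fetal groups plus a chamber term, on 2 residual degrees of freedom; the interaction had 1. Genes entered a test when all arrays of either side were well above background. Benjamini-Hochberg adjustment ran over all genes tested, at a threshold of 0.05. Errors are standard errors. Alternatives were another background correction, other scalings, the deposited log2 table, other probe rules, filters and terms, and each array left out.

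The genes, lists and tests were chosen with earlier results of these data known. All 38 replication genes could be named, and of each other list up to 4 called genes per comparison, or the 2 largest differences where none was called. The scripts were tested on simulated arrays under 2 noise models. With spreads drawn as the test assumes, the share of false calls was near the threshold. With each gene's own moderated spread, the model tried first, it was above the threshold, and the other model was added after this was seen. The calls as a set may therefore hold more false ones than the threshold states, and a call close to it carries more risk than its adjusted p states.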

Additional observations from a re-analysis of the deposited data

How the results depend on the processing

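Over 10 alternatives of processing and the arrays left out in turn, single replication genes gave 2453 values, of which 8 changed sign, 27 lost a call and 12 gained one. Few of these values were between ventricular and atrial CMPs, with 47 unchanged and 1 of changed sign. Between postmortem and living CMPs 601 were unchanged and 7 changed sign. The count of sign changes therefore does not cover all genes in the chamber comparison. None of the sign changes was in a called gene. In postmortem against living CMPs, Ccne1 was 0.055 with normexp background correction and 0.42 in the mean of probes, and -0.15 to 0.14 with an array left out. E2f1 ran from -0.14 to 0.81 with an array left out, and Chaf1b, 0.46 by the probe used, was -0.24 in the mean of probes. Between ventricular and atrial CMPs Chaf1b was 0.44 and -0.21 in the mean of probes. Of its probes, 1 was well above background on the living atrial array alone.

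With an array left out, 0 to 2 genes were called higher in postmortem than in living CMPs, and 0 to 1 higher in CMPs than in fetal heart. The latter was 1 with normexp and 1 without a chamber term, E2f1 each time. The median from adult to fetal heart was 3.24 with normexp and 3.02 in the mean of probes, where the cause was not tested. Counts otherwise stayed at 25 to 28 higher in CMPs than in adult heart, 33 to 35 lower than in fetal heart, and 34 to 36 higher in fetal than in adult heart. Slide or scan as a block was not run, since all arrays shared 1 slide and 1 scan. The CMP arrays pair by chamber, and the chamber term carries that pairing; without it E2f1 gained its call against fetal heart and Orc1 lost that of fetal against adult heart (1.91, adjusted p = 0.102, limma). Of 38 genes, 3 were limited by signal close to background on some arrays.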
